A study of Populus trichocarpa and Populus tremula x Populus alba with 22 samples.

Results

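Fe deprivation in the young leaf was measured in 6 of the 22 RNA-seq libraries of the series. They were chosen by their labels as the 3 young leaf libraries of Fe-deprived Populus trichocarpa (0 µM Fe) and the 3 of control plants (10 µM Fe). The plants were held at these Fe levels in hydroponics for 21 days. The labels call the libraries biological replicates and carry a code for each, read here as the plant: P7, P22 and P30 without Fe, and P11, P13 and P17 with Fe. No genotype below the species is given, nor the age of the plants. RNA was sequenced as paired-end reads of 150 bp after poly(A) selection. The 3rd internode of plants with the same 6 codes serves below as a second tissue. Leaf (3 libraries) and stem (2 libraries) of empty-vector plants of the hybrid Populus tremula x Populus alba, 4 months old, counted on the same gene IDs, serve to define tissue-enriched genes.

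Fe is a cofactor of heme and Fe-S proteins in photosynthetic electron transport, in respiration and in chlorophyll synthesis. It moves poorly out of older leaves in many plants, so young leaves are the first to yellow when the supply ends. Plants answer low Fe mainly through basic helix-loop-helix transcription factors, which control genes for Fe uptake, transport and storage. The tables hold gene IDs without names, and 0 of 42950 IDs matched the reference table (assembly P.trichocarpa_v4.1). Genes are therefore given by ID, with no name or role, and no pathway, regulator or cell type marker list is described. The 2 largest rises and the 2 largest falls that passed the test are given in full, and other genes as groups.

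The Fe-deprived libraries held 50011387 to 68689878 reads and the controls 47002181 to 53860399. Reads here are whole numbers recovered from the deposited values, and whether they are sequenced reads or rounded estimates is not known, which bears on each depth, count of 0 and limit below. A library without Fe held reads of 31714 to 32259 genes, against 31719 to 31870 in a control library. Values are normalized counts, gene counts divided by a size factor per library. A count of 0 allows a value of up to 2.22 to 3.06 in the Fe-deprived libraries and up to 3.01 to 3.70 in the controls (3 reads, counting error only).

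The 6 libraries separated by Fe supply. The first principal component of log2(value + 1) held 50% of the variance and placed P7, P22 and P30 at 51.4, 91.3 and 79.5, and P11, P13 and P17 at -47.3, -87.0 and -87.8. The second held 20.4% and set P7, at 90.7, apart from P22 and P30, at -27.9 and -33.3. P22 and P30 differed by a root mean square of 0.599 on the log2 scale, and P7 differed from them by 0.894 and 0.858. The control libraries differed from each other by 0.727 to 0.854, and libraries of different Fe supply by 0.946 to 1.19. P30 and control P11 were the closest pair across the groups, with 16.3% of tested genes at least 2-fold apart, fewer than the 16.7% between P30 and P7.

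**Figure D1:**
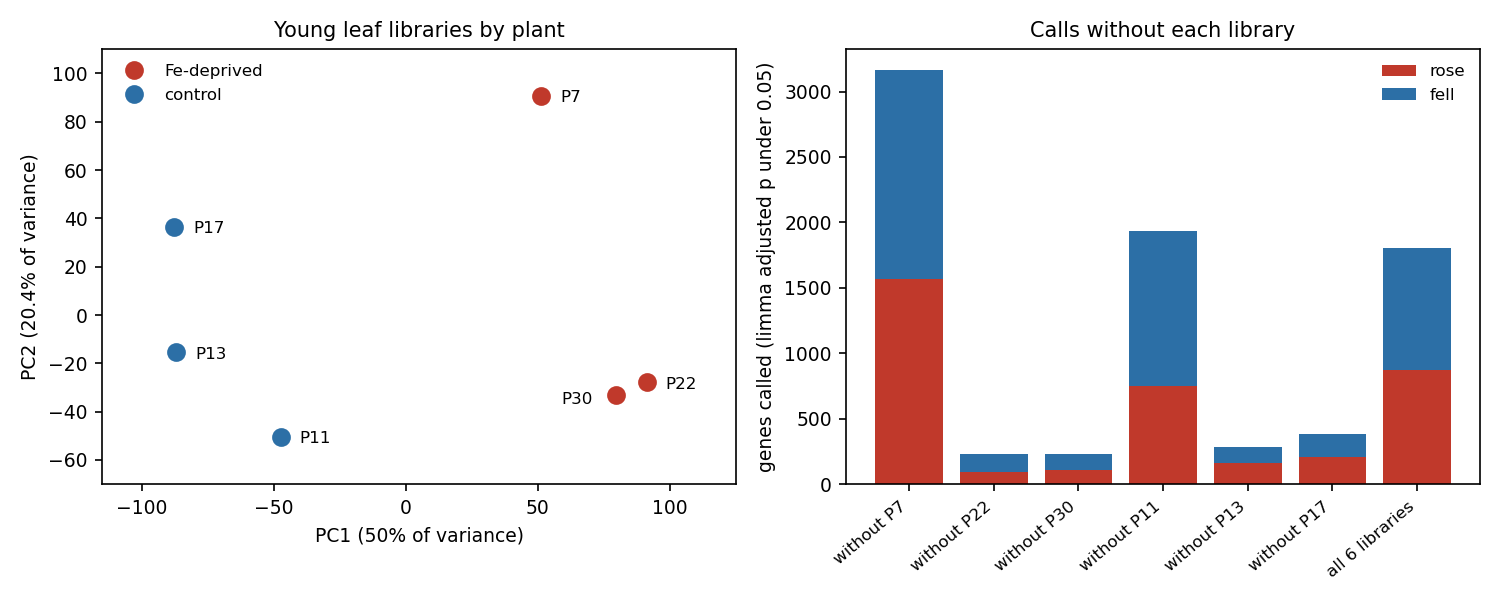
Left, the first 2 principal components of the 6 young leaf libraries on the log2(value + 1) scale, with the percent of variance on each axis and the plant code beside each point. P7 lies apart from P22 and P30 on the second component. Right, the number of genes called as rising and falling by limma (adjusted p under 0.05) without each library in turn and with all 6; it was 3165 without P7 and 230 without P30.

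The comparison asks how the young leaf transcriptome differs when Fe is withheld. Of 28632 genes tested, 870 rose (3.04%) and 937 fell (3.27%), 6.31% in all, by limma's test with Benjamini-Hochberg adjustment at 0.05. A gene was tested if 3 or more libraries had a value of at least 10. The genes that rose had a median log2 fold change of 1.30 (quartiles 0.88 and 2.16), and those that fell -1.56 (quartiles -2.36 and -1.08), against -0.01 over all tested genes. By at least 4-fold, 242 rose and 324 fell. The count of calls moved with single libraries, to 3165 without P7, 233 without P22, 230 without P30, 1935 without P11, 282 without P13 and 383 without P17. Since these are whole leaves, fewer cells of a type and less RNA per cell cannot be told apart.

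Potri.005G096200 had the largest rise on the log2(value + 1) scale. It stood at 60017, 35223 and 22338 normalized counts in Fe-deprived P7, P22 and P30, against 3.01, 0 and 2.47 in control P11, P13 and P17. In the control leaves these were 3, 0 and 2 reads, while without Fe the gene ranked 67th, 119th and 231st of all genes in its library. The lowest Fe-deprived leaf lay above the highest control by much more than the spread among the Fe-deprived plants, in which the highest value was 2.69 times the lowest. The log2 fold change was 13.88 ± 0.58 (SE, n = 3 each, limma adjusted p = 0.000185), and 12.40 to 15.25 with pseudocounts of 5 and 0.1.

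Potri.006G037600 had 15349, 5362 and 3373 normalized counts in Fe-deprived P7, P22 and P30, and 0 reads in each of the 3 controls. In leaf it was thus counted without Fe only, and at least 2360-fold higher there, set against 3 reads per control library (limma adjusted p = 0.000185). As for Potri.005G096200, P7 was the highest and P30 the lowest of the Fe-deprived plants.

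Potri.002G188000 had the largest fall. It had 0, 1.82 and 0.739 normalized counts in Fe-deprived P7, P22 and P30 (0, 2 and 1 reads), against 504, 1316 and 579 in control P11, P13 and P17. The Fe-deprived leaves were all at or under the level that a count of 0 allows, and the controls stood far above it. The log2 fold change was -8.74 ± 0.56 (SE, n = 3 each, limma adjusted p = 0.00121). With so few reads it depends on the pseudocount, at -6.98 with 5 and -10.38 with 0.1.

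Potri.015G050200 had 92.8, 1.82 and 0 normalized counts in Fe-deprived P7, P22 and P30, against 4218, 858 and 589 in control P11, P13 and P17. The groups did not overlap, but both were wide, with the highest control at 7.16 times the lowest and P7 well above the other Fe-deprived leaves. The log2 fold change was -7.65 ± 1.58 (SE, n = 3 each, limma adjusted p = 0.0366). The call did not hold in 5 of the 6 fits without a library, where the adjusted p by limma ran from 0.0115 (without P7) to 0.129 (without P22), and edgeR did not make it (adjusted p = 0.0588). It was lost as well with a pseudocount of 0.1 (limma adjusted p = 0.0574).

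**Figure D2:**
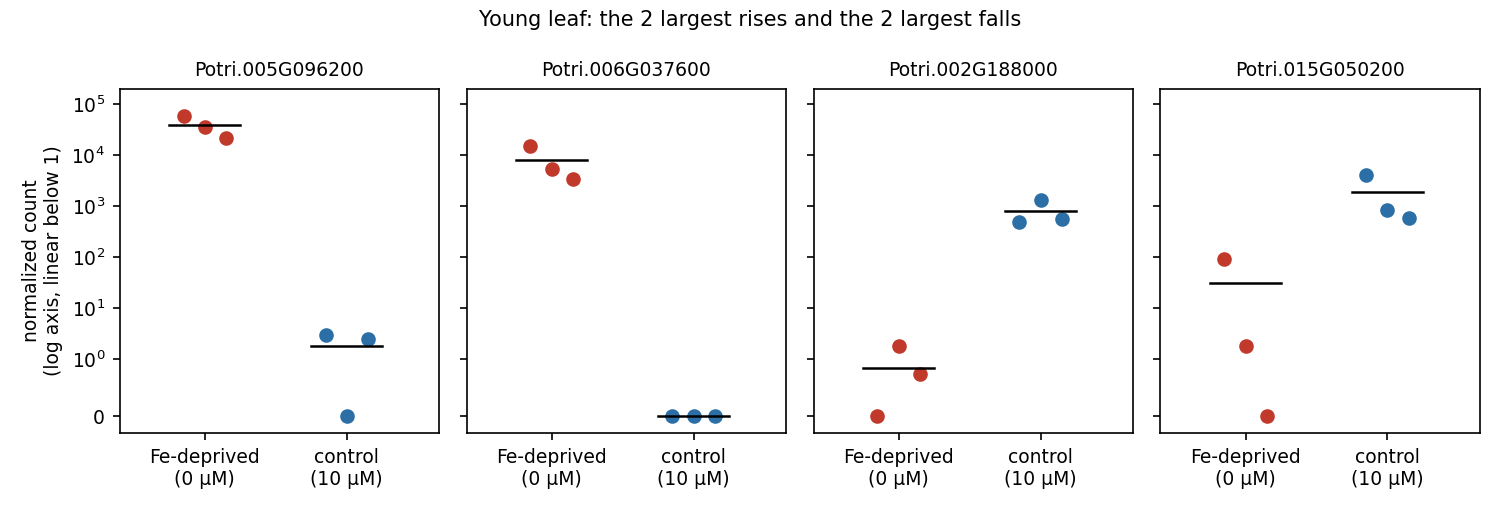
Normalized counts of the 4 genes in each of the 3 Fe-deprived (left, red) and 3 control (right, blue) young leaf libraries, on a log axis that is linear below 1; points run from replicate 1 to 3 within a group and bars mark the mean. Potri.005G096200 and Potri.006G037600 lie at 3373 or more in each Fe-deprived leaf and under 4 in each control, and Potri.002G188000 and Potri.015G050200 lie lower in the Fe-deprived leaves, without overlap.

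A few rises stood clear of the other called changes. By a log2 of at least 9, a limit set after their values were seen, 6 genes rose, from 9.45 to 13.88, while the next largest rise was 6.65 and the tenth 6.05. No called gene fell by that much. The largest fall was -8.74, and the tenth largest fall was -6.26. In the Fe-deprived leaves these 6 genes stood at 234 to 63271 normalized counts, in the controls at 0 to 154. Each of the 6 was highest in P7 among the Fe-deprived plants. Each was called in the 6 fits without a library and by edgeR, beside 158 and 1711 of all 1807 calls. A choice by the largest change in the same libraries favours such calls, so they are no separate test. Together they held 0.20% of all normalized counts of the Fe-deprived leaves.

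Genes with reads in 1 group only were few. 16 genes had 0 reads in the 3 controls and a value of at least 10 in each Fe-deprived leaf, and all 16 rose by limma's test, which the way they were picked largely fixes. Apart from Potri.006G037600 they were mostly low, with a median mean value of 25.9. In the other direction, 14 genes had 0 reads in the 3 Fe-deprived leaves and at least 10 in each control, with a median of 28.0. Of these, 13 fell by the test, which the way they were picked again largely fixes. Among all tested genes 3.04% rose and 3.27% fell.

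Called genes were spread over all levels. Of 4059 tested genes with a mean normalized count under 50, 1.70% rose and 1.28% fell. Of 1686 genes at 5000 or more, 5.46% rose and 6.82% fell. The precision moved with the level, since the median SE of the log2 fold change was 0.58 under 50, 0.38 from 50 to 200 and 0.18 from 1000 to 5000. The smallest change that was called was accordingly a log2 of 1.60 in the lowest class and 0.54 from 1000 to 5000, so low genes needed a larger change to pass. In all, 586 genes changed by at least 4-fold without passing the test. Their median level was 47.7 and their median SE 0.91, against 237 and 0.52 for the 566 genes that passed at that fold, and 159 of them overlapped between the groups.

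**Figure D3:**
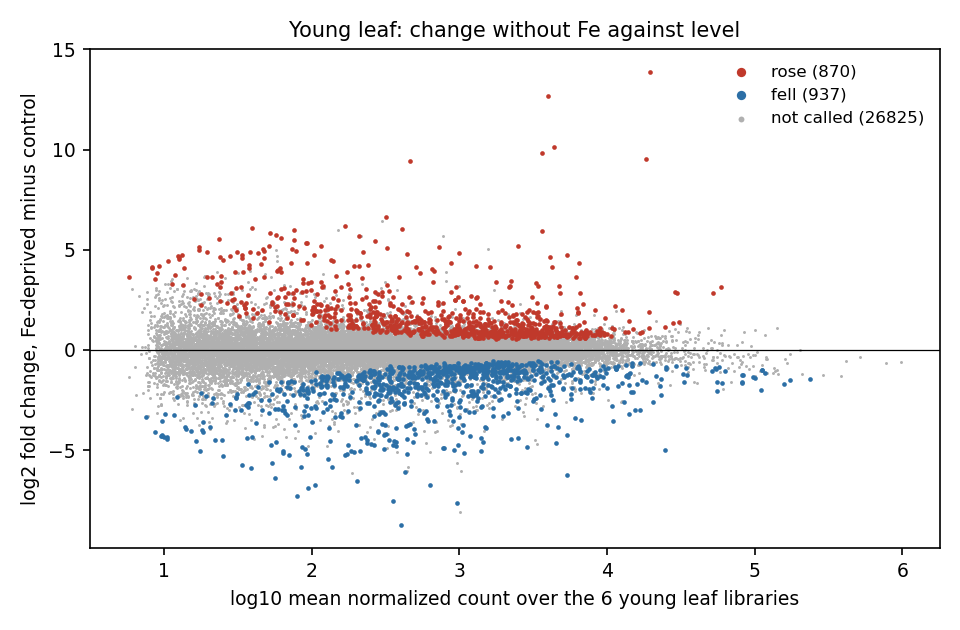
Log2 fold change (Fe-deprived minus control) of each tested gene against the log10 of its mean normalized count over the 6 young leaf libraries; red points rose and blue points fell by limma's test, grey points were not called. 6 red points lie above a log2 of 9, and the next red point lies at 6.65.

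**Figure D4:**
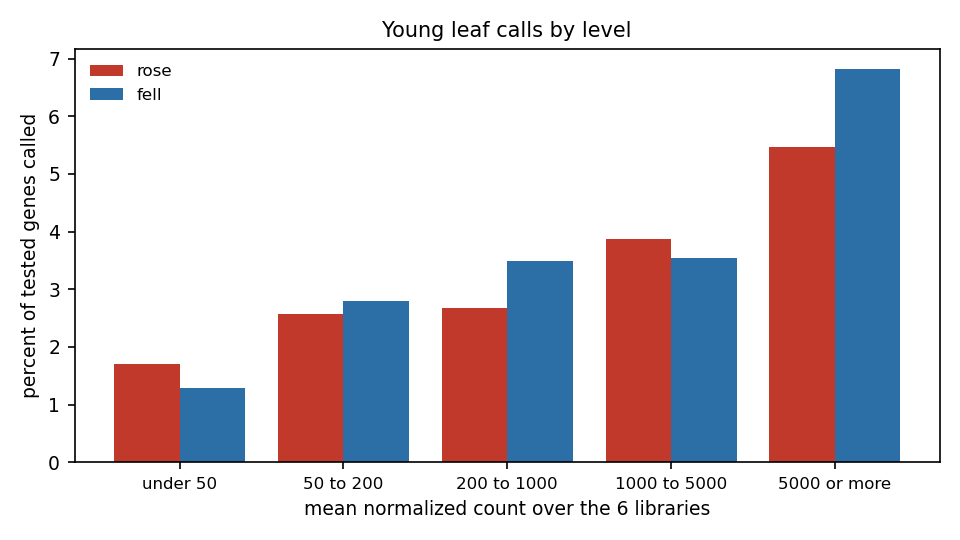
Percent of tested genes that rose (red) or fell (blue) by limma's test, in 5 classes of mean normalized count over the 6 young leaf libraries. The share runs from 1.70% and 1.28% under 50 to 5.46% and 6.82% at 5000 or more.

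The most abundant transcripts took up less of the Fe-deprived libraries. The 100 most abundant genes of each library held 20.7, 18.2 and 19.2% of the normalized counts in Fe-deprived P7, P22 and P30, against 25, 25.1 and 27.8% in control P11, P13 and P17. The groups did not overlap (mean 19.4 ± 1.26% and 26.0 ± 1.59%, SD, n = 3 each, two-sided exact permutation p = 0.1). With 3 libraries per group no lower p can be reached, and adjustment over 6 such shares (Benjamini-Hochberg, exact permutation) left p at 0.1. To rank genes outside this contrast, the 100 most abundant genes of empty-vector leaves were taken. They held 16.1 ± 0.961% of the normalized counts in Fe-deprived leaves and 22.8 ± 1.59% in control leaves (SD, n = 3 each, two-sided exact permutation p = 0.1). Of these 100 genes 0 rose and 18 fell by limma's test, while 1 rose and 23 fell by edgeR (3.28 and 3.34% of all tested genes). At an unadjusted p under 0.05 by limma, 11 were higher and 47 lower without Fe, beside 12.4 and 12.8% of all tested genes. In 59 the Fe-deprived leaves lay wholly below the controls and in 9 wholly above, against 15.6% below, 15.5% above and 31.2% in all among tested genes.

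Their median log2 change was -0.48 on the deposited scale and -0.45 under edgeR's scaling. Quantile normalization, which gives each library the same distribution of values and so removes a shift of the most abundant genes by construction, left a median of -0.06, with 3 genes rising and 7 falling. The decline thus holds relative to the rest of the library as the authors scaled it. It was weaker further down the ranking. The 500 most abundant genes of empty-vector leaves had a median of -0.05 on the deposited scale, with 233 higher and 266 lower. By limma's test 3.0% of these 500 rose and 8.0% fell, beside 3.04 and 3.27% of all tested genes. Over all tested genes the median moved from -0.01 to 0.03 with quantile normalization and to 0.04 with edgeR.

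The leaf label was checked with genes enriched in leaf or stem, a choice made with these data in view, since no marker gene is named. They were taken from the empty-vector plants, as genes at least 8-fold apart between leaf and stem and at 20 CPM or more in the higher tissue. The 1890 leaf-enriched genes held 35.2 to 38.5% of the Fe-deprived leaf libraries and 42.8 to 45.7% of the control leaf libraries. In the internodes of the same plants they held 8.74 to 11.3% without Fe and 9.13 to 12.6% with Fe. The 1058 stem-enriched genes held 1.18 to 1.40% of the Fe-deprived and 1.43 to 1.54% of the control leaf libraries, and 43 of them were at 0 in all 6. Both classes thus set the 6 libraries with leaf.

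Among the leaf-enriched genes, 1870 were tested, of which 104 rose and 104 fell, 5.56% in each direction, beside 3.04 and 3.27% of all tested genes. Their median log2 change was 0.03. The list holds no low genes of empty-vector leaves, and the share called ran higher at higher levels. At a mean normalized count of 1000 to 5000, 3.87% of tested genes rose and 3.55% fell, and at 5000 or more 5.46 and 6.82%. The list was not compared with genes of like level. Of the 100 most abundant leaf-enriched genes 0 rose and 18 fell (limma; 1 and 23 by edgeR, and 7 higher and 48 lower at limma's unadjusted p under 0.05, beside the shares of all tested genes given above), with a median of -0.50 (-0.11 with quantile normalization). This list and the 100 genes above were both ranked by empty-vector leaves and had the same counts of calls. They can share many genes, their overlap was not counted, and they are no separate results. Among stem-enriched genes, 49 of the 932 tested fell (5.26%) and 20 rose (2.15%), and their median was -0.13 (-0.09 after quantile normalization).

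The genes that rose held 5.41 ± 0.108% of the normalized counts of Fe-deprived leaves and 1.97 ± 0.171% of the controls (SD, n = 3 each). Those that fell held 4.31 ± 0.668% and 10.2 ± 0.611% (SD, n = 3 each). These 2 pairs of shares describe the calls and are no test of them.

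**Figure D5:**
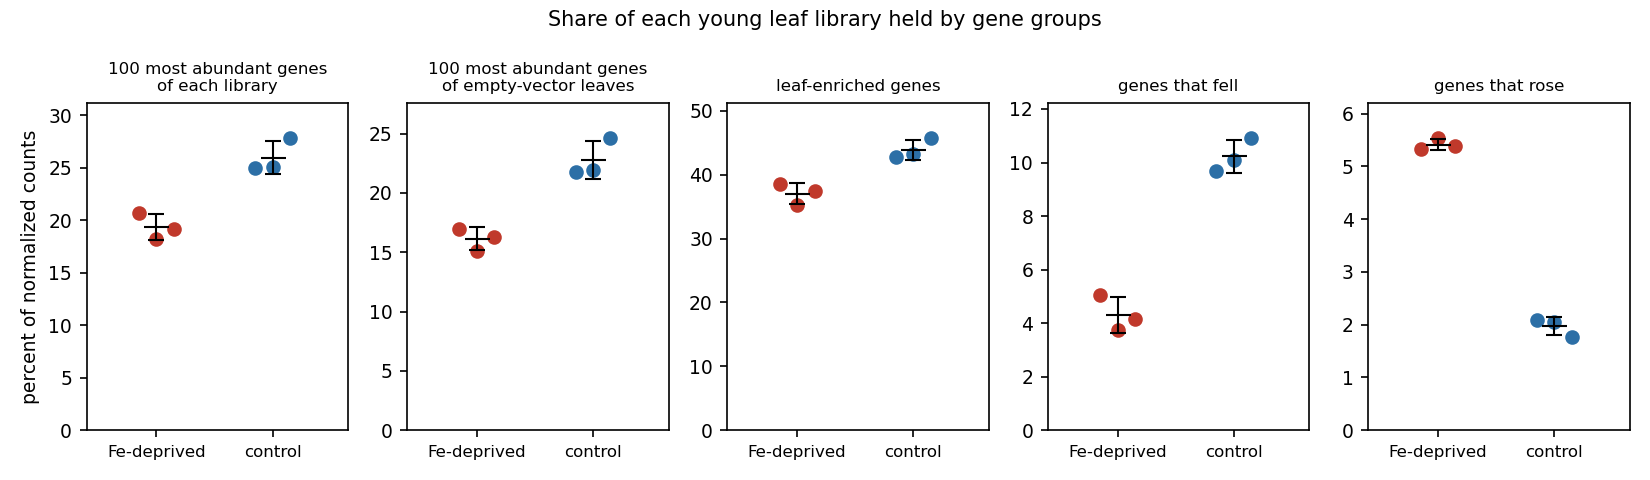
Percent of the normalized counts of each young leaf library held by 5 groups of genes, in Fe-deprived (left, red) and control (right, blue) leaves; bars give the mean ± SD of 3 libraries. Each axis starts at 0. The 3 left groups and the genes that fell lie lower in the Fe-deprived leaves without overlap, and the genes that rose lie higher.

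Over all tested genes the median SD on the log2(value + 1) scale was 0.31 among the Fe-deprived and 0.24 among the control leaves, and it was larger without Fe for 59.5% of genes. Among the genes that rose these medians were 0.26 and 0.24, with 48.9% larger without Fe, and among those that fell 0.32 and 0.29, with 54.5% larger, though a small spread helps a gene to be called. Among the 937 genes that fell, P7 was the Fe-deprived plant nearest the controls for 528 (56.4%), P30 for 272 (29.0%) and P22 for 137 (14.6%). P11 was the control nearest the Fe-deprived plants for 480 (51.2%) of them. Among the 870 genes that rose, the nearest Fe-deprived plant was P30 for 338, P7 for 336 and P22 for 196, and no control held more than 37.2%. Among 7123 genes that were not called and did not overlap between the groups, P7 was nearest for 43.5% and P11 for 41.6%. Higher and lower genes are pooled in these shares, so they cannot tell whether the lead of P7 and P11 held in both directions.

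A smaller group of 158 genes, 68 that rose and 90 that fell, was called with all libraries and in each of the 6 fits that leave 1 out. On the same libraries edgeR called all 158 too, beside 6.62% of all tested genes and 1711 of the 1807 limma calls. Its agreement on genes chosen as stable calls thus adds little. The 68 had a median log2 change of 3.12 and the 90 a median of -2.36, and 52 and 62 of them changed by at least 4-fold. Of the 1807 calls, 88 were made in none of the 6 fits without a library.

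Some called genes lay beside another gene called in the same direction. The IDs carry the chromosome number and run in order along it. Neighbours here are tested genes that follow each other in that order, and untested genes can lie between them. Of 844 genes that rose and lie on the 19 chromosomes, 116 (13.7%) had a neighbour that rose, beside 5.97% of all tested genes. Of 909 genes that fell, 127 (14%) had a neighbour that fell, beside 6.42% of all tested genes. A neighbour called in the opposite direction was present for 4.98% of the genes that rose and 4.62% of those that fell, beside 6.42 and 5.97% of all tested genes. There were 8 runs of 3 rising genes, and 8 runs of 3 or more falling genes, the longest of 5 on chromosome 5. Neighbouring genes can be near-identical copies, between which reads can be split or shared, and the part of this in the runs was not tested.

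By chromosome, the share of tested genes that rose ran from 1.92% on chromosome 3 to 4.34% on chromosome 15. The share that fell ran from 1.60% on chromosome 15 to 4.60% on chromosome 17. On chromosome 15, 46 genes rose and 17 fell, and on chromosome 17, 25 rose and 45 fell. These shares are a description, and no difference between chromosomes was tested.

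The internodes of the same plants show how far the leaf changes were shared by a second tissue. Potri.005G096200 had 512, 77.4 and 132 normalized counts in the internodes of P7, P22 and P30, against 9.57, 0 and 0 in those of P11, P13 and P17. The internode values without Fe all lay above the controls, with P7 again the highest, but the internode change did not pass its test (log2 6.32, limma adjusted p = 0.0655). The leaf change exceeded that of the internode by a log2 of 7.56 ± 0.90 (SE, paired by plant, limma adjusted p = 0.0336). The call of this difference held without P17 and was lost without each of the other 5 plants, where the adjusted p by limma reached 0.152, and with a pseudocount of 0.1 (0.145). Potri.006G037600 had 5.54, 7.88 and 8.22 in the internodes of P7, P22 and P30 and 0 reads in those of the 3 controls, too low to be tested there. Of the 6 genes with a leaf rise of at least a log2 of 9, 4 were tested in the internode. All 4 were higher there without Fe, by a log2 of 6.32 to 8.29, and 3 were called by limma. Among all 27351 genes tested in both tissues, 91 rose in the internode. The leaf minus internode difference was called for 1 of the 6.

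Potri.002G188000 had 14.8, 7.16 and 7.19 normalized counts in the internodes of P7, P22 and P30, against 6.38, 38.5 and 35.3 in those of P11, P13 and P17. These values overlapped, and with controls this low the internode could not show a fall as large as that in leaf. The leaf change less that of the internode was -7.63 ± 0.76 on the log2 scale (SE, limma adjusted p = 0.0242). Its call was lost without P7, P22, P30 or P13, with an adjusted p by limma of up to 0.130, and with a pseudocount of 0.1 (0.0613). With the young leaf replicate number as a block it was 0.124, and 0.108 for Potri.005G096200 (limma adjusted p). That number differs between the leaf and the internode of P7, P22 and P30, so it is no block shared by both tissues. Potri.015G050200 had 50.8, 78.1 and 152 in the internodes of P7, P22 and P30, below the 421, 343 and 179 in those of P11, P13 and P17, and its difference between the tissues, a log2 of -5.85 ± 1.91 (SE), did not pass the test (limma adjusted p = 0.228).

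Of the 870 genes that rose in leaf, 822 were also tested in the internode. Their median log2 change was 1.24 in the leaf and 0.34 in the internode, where the quartiles were 0.03 and 0.95. The 853 tested genes that fell in leaf had a median of -1.46 there and -0.35 in the internode, with quartiles of -0.87 and 0.16. Over the 27351 genes tested in both tissues the medians were -0.01 and 0.01. Of the 822 genes, 636 kept their direction in the internode, where 21 rose and 2 fell by limma's test. Of the 853 genes, 580 kept it, and 11 fell and 2 rose there. Over all 27351 genes 91 rose and 67 fell in the internode, and agreement in direction was not counted for them. Since the genes were chosen by their leaf change, a smaller change in a second tissue follows in part from that choice. The difference itself, within plants, was called for 135 of 27351 genes (0.494%), among them 20 of those that rose in leaf and 62 of those that fell. That count became 0 without P30 or P13, 7 without P7, 10 without P22 and 82 without P17. Of the 853 genes that fell in leaf, 198 had a control mean at least 4-fold lower in internode than in leaf, and 72 of the 822 that rose. Genes at a low level in the control internodes had less room to fall there, and the part of this in the called differences was not tested.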

How the data were processed

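The authors deposited normalized gene counts, a signal per gene in which each library's whole counts had been divided by its size factor. The submitters' processing notes name HISAT2 (2.2.1), StringTie (version 2.2.1) and DESeq2 (version 2.11.40.7), with no role for any of them, and the young leaf headers name StringTie gene counts, per the file headers. The sources used here do not give the genome build, annotation, strand setting or the treatment of overlapping genes and near-identical copies. Dividing by the step of each library gave whole numbers for 100% of values (tolerance 0.001), called reads here, though they may be estimates that StringTie derives from coverage. For control P11, whose step is close to 1, whole multiples say less about the scale.

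Genes that reached a value of 10 in 3 or more libraries were tested by limma-trend (limma 3.58.1 under R 4.3.3) on log2(value + 1), two-sided, with a Benjamini-Hochberg adjusted threshold of 0.05; fold changes on that scale understate the change of low genes. Internode differences were fitted within plants. edgeR 4.0.16 (quasi-likelihood, TMM) and DESeq2 1.42.0 on recovered reads were alternatives, with other pseudocounts, filters, quantile normalization, a replicate block and each library left out. In fits without a library, a value of 10 in 2 or more libraries, the size of the smaller group, was enough. For young leaf 29106 to 29214 genes were then tested, so these fits differ in the gene set as well. Functions were tested on simulated data. Named genes are the 2 called genes with the largest rise and the 2 with the largest fall, with a mean of at least 50 and no overlap. Genes, groups and lists were chosen with earlier results of these data known. Lists by pathway and cell type marker were not used, since no ID had a name.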

Additional observations from a re-analysis of the deposited data

Results flagged for a closer look

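For 135 genes the change without Fe differed between the young leaf and the internode, tested within plants. The count was 0 without P30, 0 without P13, 7 without P7, 10 without P22 and 82 without P17. It was also 0 with the young leaf replicate number as a block, though the internodes of P7, P22 and P30 carry other numbers. They include Potri.005G096200, whose leaf change exceeded that of the internode by a log2 of 7.56. For Potri.002G188000, whose control internodes were too low for an equal fall, the leaf change less that of the internode was -7.63. Both calls were lost without P7, P22, P30 or P13.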

How the results depend on the processing

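The 1807 calls in young leaf stayed within 1.5 times that number, at 1623 to 1911, with pseudocounts of 0.1 and 5, without a filter, with a filter at 50, with quantile normalization and with edgeR. DESeq2 called 4744 genes, among them all 1807. Without 1 library the count ran from 230 to 3165. The replicate numbers do not pair the young leaf libraries: deviations of same-numbered libraries correlated at -0.22, 0.089 and -0.25, and with the number as a replicate block 343 genes were called, 315 of them among the 1807. For the leaf minus internode difference, 135 genes became 72 with a pseudocount of 0.1, and 251 with the trend taken over the mean level of both tissues, a choice made after seeing the data. With the young leaf replicate number as a block limma called 0 genes (3366 at an unadjusted p under 0.05). That number is not the same in the internode for P7, P22 and P30. Without 1 plant limma called 0 to 126 genes. The 0 counts had 2694 genes (without P30) and 3993 genes (without P13) at an unadjusted p under 0.05. No other tool was run on this difference. The cause of these moves was not tested. Potri.005G096200, Potri.006G037600 and Potri.002G188000 kept the direction and the call of their young leaf change under each alternative run, but the calls of the leaf minus internode difference did not hold, as given beside them. With 3 libraries per group, changes of low genes were the least precise.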
